A study of Drosophila melanogaster with 12 samples.

Results

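In male *Drosophila* heads, 94 protein-coding genes had a higher level after 12 h of paraquat than at 0 h in control flies and a lower level after 12 h than at 0 h in *G9a* mutants. The members were chosen by 4 conditions on the normalized counts, which are read counts per gene divided by a size factor for each library. A gene had to reach a mean of 10 normalized counts over the 12 libraries. Its mean log2(normalized count + 1) at 12 h had to exceed that at 0 h by more than 0.585 in controls, and had to lie more than 0.585 under it in mutants, where 0.585 is a 1.5-fold difference on that scale. Of 106 genes that met these thresholds, 12 were left out because their symbols begin with Gst, Hsp, Cyp, Ugt, Obp, Cpr or lncRNA:, namely *GstD8*, *GstE4*, *Obp28a*, *Obp56e*, *Obp99c*, *Cyp6g1*, *Cyp4d21*, *Cyp6w1*, *Cpr47Ee*, *Cpr56F*, *Cpr60D* and *Cpr65Au*. The remaining 94 genes were taken from 10530 genes that reached the minimum level, out of 15682 in the table.

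The 12 libraries formed 6 groups of 2 biological duplicates, each library made from the pooled heads of 200 males aged 5 to 9 days. Mutants carried *G9a*DD1, a null allele from the excision of a P element, and controls shared their genetic background and derived from a precise excision. Flies were frozen before treatment (0 h) or once they had fed for 6 or 12 h on 50 mM paraquat, a compound that generates superoxide inside cells, and heads were separated from bodies over sieves. No flies were kept on untreated food for 6 or 12 h, and the flies were reared on a light/dark cycle, so time on paraquat and time of day cannot be told apart. Each genotype was 1 line. The count of the *G9a* gene itself was 2620 to 3087 in control and 3519 to 3700 in mutant libraries, and a count over the whole gene does not check an excision allele. With 2 libraries in a group, p-values measure only the spread between these pools of heads.

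G9a is a histone methyltransferase that adds the H3K9me2 mark, and oxidative stress (OS) sets off a broad change of transcription in flies. The insect head holds the antennae and maxillary palps, in which odours reach receptor channels on ciliated neurons and are cleared by enzymes of the surrounding support cells. It also holds the brain with its glial barrier, fat body, and an epidermis covered by a cuticle that is sealed with lipids. Antimicrobial and Turandot peptides are secreted in response to infection and stress, and tyrosine is broken down in steps catalysed by single enzymes.

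Of the 94 members, 46 were placed in groups by known roles: 7 olfactory receptors, 4 olfactory support genes, 5 ciliary genes, 3 members of the Jhbp family, 4 genes for lipids and the body surface, 2 enzymes of tyrosine breakdown, 7 genes of immunity and the Turandot family, 6 enzymes, inhibitors and carriers, and 8 other named genes. The other 48 had a CG number as symbol and are described without a role. The members were weakly expressed genes in the main: the median of their mean levels was 81.9 normalized counts (range 11.0 to 16441), against 652 over all tested genes, and 39 members (41.5%) had a mean under 50, as did 1285 of the 10530 tested genes. Whole-read depth was 19275805 to 41393992 per library and was highest at 0 h in both genotypes. The head markers *ninaE*, a photoreceptor opsin, and *elav*, a neuronal RNA-binding protein, were at 797527 to 1161254 and 6988 to 9744 normalized counts. *SP* and *Acp26Aa* of the accessory gland, *dj* of the testis and the gut proteases *alphaTry* and *betaTry* were at 0 or at most 2.41 in every library, and *Acp36DE* of the accessory gland reached 9.63. Other genes listed for the same tissues were present, with *bol* and *can* of the testis list at 8779 to 13559 and 18.1 to 81.5 and *Mal-A1* of the gut at 53.6 to 117. The sums of these lists were 9109 to 13948 for testis, 14795 to 30955 for accessory gland and 926 to 2424 for gut proteases, and their part in the members' values was not tested.

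**Figure D1:**
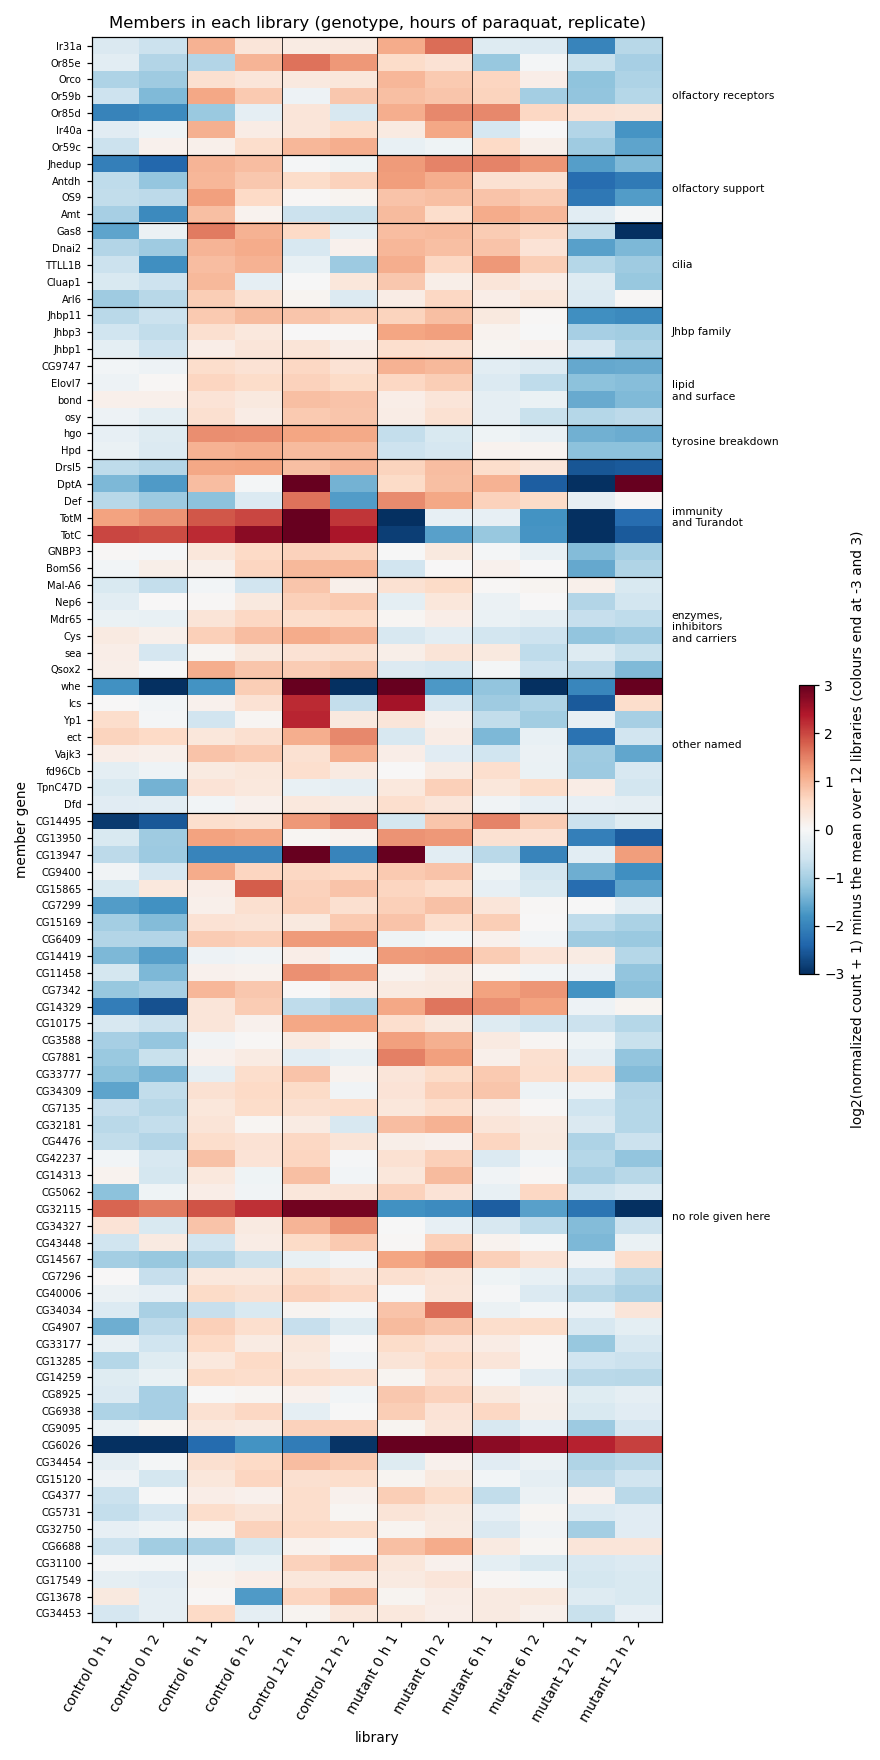
Heat map of the 94 members (rows, grouped by role) in the 12 libraries (columns), coloured by log2(normalized count + 1) minus the member's mean over all libraries, with colours ending at -3 and 3. The control 0 h and mutant 12 h columns are low for most members because these hours chose them, and *whe*, *lcs* and *CG13947* are high in single libraries.

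The differences that chose the members are given as a description only. From 0 to 12 h the median difference over members was 0.85 in controls (range 0.585 to 4.14) and -1.14 in mutants (range -3.59 to -0.59), while the medians over all tested genes were 0.0046 and -0.0082. For 81 members the libraries did not overlap in either genotype, meaning that both control 12 h libraries were above both control 0 h libraries and both mutant 12 h libraries below both mutant 0 h libraries. The same held for 6.59% of all tested genes, and nothing is read from the members' count because the rule used this contrast. Libraries overlapped in a genotype for the other 13, *whe*, *lcs*, *CG13947*, *DptA*, *Def*, *Yp1*, *TotC*, *TotM*, *Gas8*, *TTLL1B*, *CG14313*, *CG14495* and *CG33777*. Just inside the control threshold were *CG33177* (0.585), *TTLL1B* (0.586) and *fd96Cb* (0.588), and just outside it *CG5280* (0.584), FBgn0259247 (0.581) and *CG5390* (0.576). Just inside the mutant threshold were *CG13678* (-0.587), *Qsox2* (-0.599) and *Arl6* (-0.612), and just outside it *CG12206* (-0.583), *CG6435* (-0.568) and *CG17928* (-0.552).

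**Figure D2:**
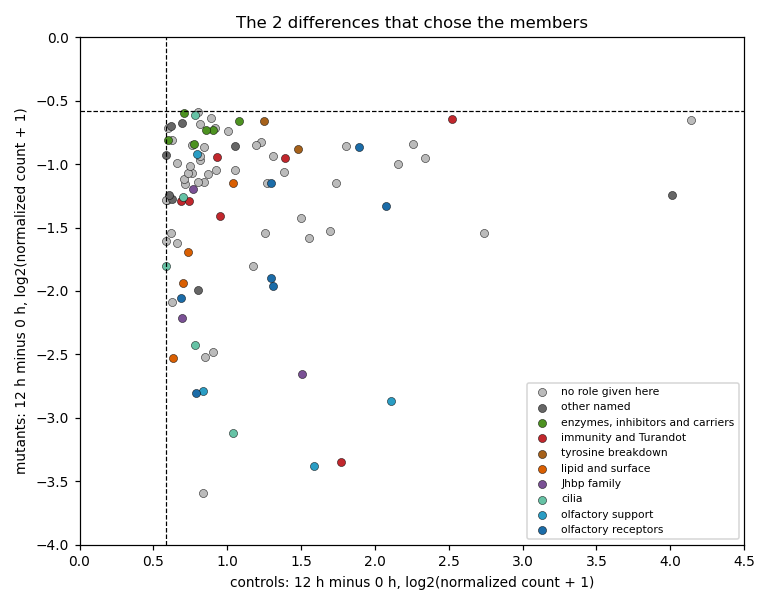
Scatter plot of the 2 differences that chose the members: 12 h minus 0 h of log2(normalized count + 1) in controls (x axis) and in mutants (y axis), 1 point for each of the 94 members, coloured by role. Dashed lines mark 0.585 and -0.585, so every point lies to the right of and under them by selection.

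For most members the genotypes stood at different levels at 0 h. At 0 h, 83 of the 94 were higher in mutants than in controls, with a median difference of 1.07, and at 12 h 85 were lower in mutants, with a median of -1.30. Of the members, 74 were higher in mutants at 0 h and lower at 12 h, 11 were lower at both hours and 9 were higher at both. The 11 lower at both hours included the Turandot genes *TotC* and *TotM*, both tyrosine enzymes, *Cys*, *Qsox2*, *BomS6*, *ect*, *Vajk3*, *CG32115* and *CG34327*. The 9 higher at both hours were *Or85d*, *Amt*, *CG6026*, *CG14329*, *CG14567*, *CG6688*, *CG34034*, *CG4907* and *TpnC47D*. The medians over all tested genes were -0.0091 at 0 h and 0.0043 at 12 h. The members' values use the libraries that chose them, so these counts are not independent of the rule and carry no test.

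The 6 h libraries took no part in the 2 differences of the rule and entered it only through the mean over all 12 libraries. Through that mean, *CG15865* left the list without control 6 h replicate 2 and *TTLL1B* without mutant 6 h replicate 1. In controls the 6 h mean lay between those of 0 and 12 h for 51 members, above that of 12 h for 37 and below that of 0 h for 6. In mutants it lay between 0 and 12 h for 70 members, above 0 h for 17 and below 12 h for 7. The median distance from 6 to 12 h was 0.10 in controls and -0.80 in mutants, and from 0 to 6 h it was 0.85 and -0.38. These steps share the 0 h or 12 h libraries with the rule and are descriptions.

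The comparison of genotypes at 6 h compares libraries that those differences did not use, although the fit over all 12 libraries also takes its estimate of the spread from the 0 and 12 h libraries. Mutants were compared with controls by limma on log2(normalized count + 1), with Benjamini-Hochberg adjustment over the 10530 genes and a call at a fold of at least 1.5 and an adjusted p of at most 0.05. Of the 94 members, 26 (27.7%) were lower in mutants at 6 h, where 7.39% of all tested genes were. Another 5 members (5.32%) were higher, where 6.53% of all tested genes were, and 63 were not called. With the 4 libraries of 6 h alone in the fit, 26 were lower and 6 higher, with 2 calls lost and 3 gained. The median difference over members was -0.34 (quartiles -0.75 and 0.05) against 0.0004 over all tested genes, and 68 members were below 0. At an unadjusted p under 0.05 with no fold threshold, 48.9% of members and 42.7% of all genes passed. In the 4 libraries of 6 h, both mutant libraries were below both control libraries for 52 members (55.3%) and above both for 16 (17.0%). Over all tested genes these shares were 32.8% and 34.7%. For every count of calls in a role group or gene list below, the shares over all tested genes are 7.39% lower and 6.53% higher.

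The lower calls were mostly among the more abundant members. Among the 55 members whose mean reached 50 normalized counts, 24 (43.6%) were lower in mutants at 6 h, against 6.9% of the 9245 tested genes at that level, and 3 (5.45%) were higher, against 6.21%. Among the 39 members under 50, 2 (5.13%) were lower, against 10.9% of the 1285 genes tested there, and 2 were higher, against 8.87%. Among the 44 members that met the rule whichever single library was left out, 17 (38.6%) were lower and 3 (6.82%) were higher. The shares over all tested genes were 7.39% and 6.53%. Of the 26 members lower at 6 h, 17 had been higher in mutants at 0 h, and all 26 were lower at 12 h. All 5 members higher at 6 h were also higher at 0 h and at 12 h. Of all 94 members, 83 were higher in mutants at 0 h and 85 lower at 12 h. The 0 and 12 h libraries chose the members, so these counts carry no test.

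**Figure D3:**
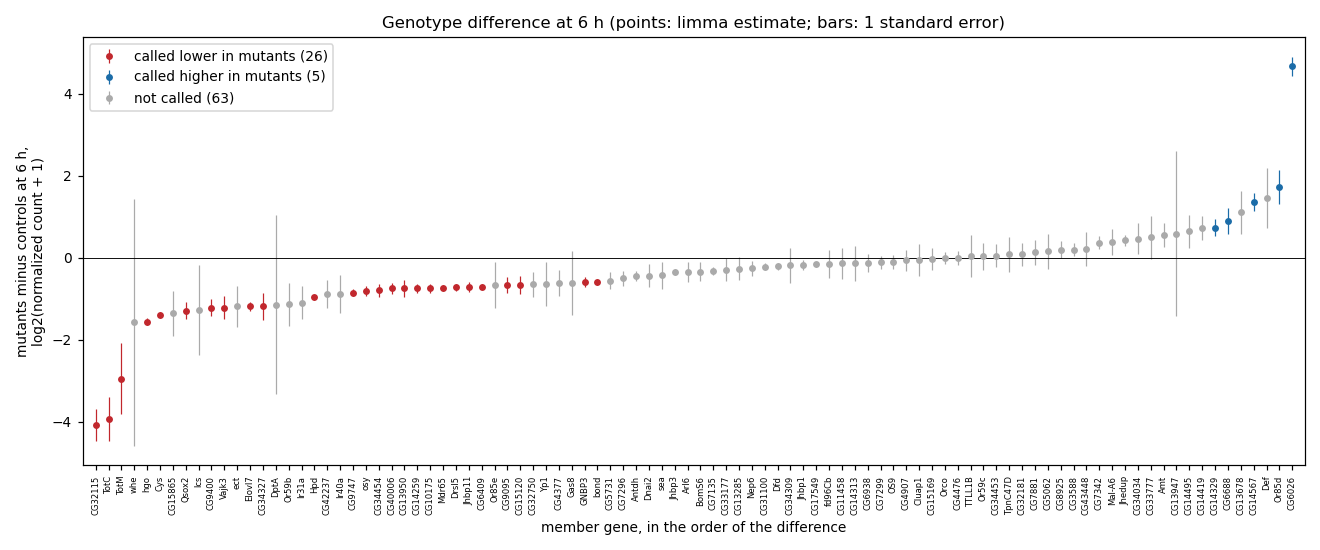
Genotype difference at 6 h of the 94 members, mutants minus controls on the log2(normalized count + 1) scale (y axis), in the order of the difference (x axis). Points are limma estimates and bars 1 standard error. The 26 red members were called lower, from *CG32115* at -4.09 to *bond* at -0.59, and the 5 blue members were called higher, up to *CG6026* at 4.68.

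The olfactory receptors were at low counts, and all but *Or85d* were higher in mutants at 0 h and lower at 12 h. *Orco* (FBgn0037324), the co-receptor shared by most odorant receptors, was at 136 and 124 normalized counts in controls at 0 h, 363 and 334 at 6 h and 319 and 327 at 12 h. Mutant libraries held 514 and 448 at 0 h, 405 and 298 at 6 h and 111 and 135 at 12 h. Mutants were thus above controls at 0 h, overlapped with them at 6 h and were below them at 12 h. The 6 h difference was -0.003 ± 0.15 (SE, adjusted p = 0.99 by limma), with n = 2 libraries in each group. *Ir31a*, an ionotropic receptor of antennal neurons, was at 14.7 and 12.5 in controls at 0 h, 42.4 and 26.1 at 6 h and 23.9 and 24.4 at 12 h, and at 44.7 and 66.2, 15.1 and 15.0, and 4.33 and 10.8 in mutants. Its mutant libraries were above the controls at 0 h and below them at 6 and 12 h, but the 6 h difference of -1.10 ± 0.40 did not pass the test (adjusted p = 0.055). *Ir40a*, an ionotropic receptor linked to humidity sensing, differed by -0.89 ± 0.45 at 6 h (adjusted p = 0.16).

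*Or85e*, *Or59c* and *Or85d* are odorant receptors of the maxillary palp and *Or59b* is one of the antenna. *Or85e* was at 14.0 and 9.20 normalized counts in controls at 0 h, 9.28 and 37.2 at 6 h and 57.4 and 45.4 at 12 h, and at 26.5 and 24.5, 7.54 and 17.1, and 10.8 and 8.42 in mutants. Its 6 h libraries overlapped (-0.67 ± 0.56, adjusted p = 0.40). *Or85d* was at 3.83 and 4.18 in controls at 0 h, 7.96 and 14.9 at 6 h and 23.9 and 12.8 at 12 h, and at 40.1 and 51.1, 51.5 and 28.9, and 24.9 and 24.1 in mutants. It was the one olfactory receptor called at 6 h, 1.73 ± 0.41 higher in mutants on the log2 scale (adjusted p = 0.0069), and both mutant libraries were above both control libraries at each hour. The call was lost without control 6 h replicate 1 or mutant 6 h replicate 1. The neighbouring genes *Or59b* and *Or59c* differed at 6 h by -1.14 ± 0.53 (adjusted p = 0.13) and 0.04 ± 0.33 (adjusted p = 0.95). Of the 23 tested odorant receptors, 2 were lower in mutants at 6 h and 2 higher, and of the 19 tested ionotropic receptors 4 were lower and 3 higher. The shares over all tested genes were 7.39% lower and 6.53% higher.

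Of the olfactory support genes, *Antdh*, *Jhedup* and *OS9* were higher in mutants at 0 h and lower at 12 h, while *Amt* was higher in mutants at both hours. *Antdh* (FBgn0026268), an antennal short-chain dehydrogenase, was at 257 and 194 normalized counts in controls at 0 h, 877 and 762 at 6 h and 644 and 707 at 12 h. In mutants it was at 1039 and 932 at 0 h, 603 and 599.9 at 6 h and 88.7 and 98.7 at 12 h. The genotypes did not overlap at any hour and their order turned between 0 and 6 h. The 6 h difference was -0.44 ± 0.13 (adjusted p = 0.019), under the 1.5-fold threshold. *Jhedup* (FBgn0034076), a juvenile hormone esterase duplication expressed in the antenna, was at 77.8 and 62.7, 658 and 620.4, and 317 and 293 in controls at 0, 6 and 12 h, and at 786 and 909.9, 904 and 811, and 103 and 129 in mutants. Its mutant libraries were above the controls at 0 and 6 h and below them at 12 h, and the 6 h difference of 0.42 ± 0.13 (adjusted p = 0.031) was also under the fold threshold. *OS9*, an olfactory-specific gene, overlapped at 6 h (-0.10 ± 0.18, adjusted p = 0.71). *Amt*, an ammonium transporter of sensilla that respond to ammonia, differed by 0.56 ± 0.30 at 6 h (adjusted p = 0.18).

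The 5 ciliary members were *Gas8*, a subunit of the dynein regulatory complex, *Dnai2*, an outer arm dynein intermediate chain, *Cluap1*, a component of intraflagellar transport, *TTLL1B*, a tubulin ligase-like enzyme, and *Arl6*, a small GTPase of ciliary trafficking. None of these was called at 6 h, where the differences ran from -0.62 to 0.04. *Dnai2* was at 15.3 and 13.4 normalized counts in controls at 0 h, 59.7 and 63.3 at 6 h and 20.3 and 31.4 at 12 h, and at 58.3 and 54.7, 52.8 and 38.5, and 8.66 and 10.8 in mutants. It was low in controls at 0 and 12 h and in mutants at 12 h. *Gas8* had no read in 1 mutant 12 h library. Olfactory and ciliary genes together made up 16 members, of which 0 were lower and 1 was higher at 6 h by limma. Over all tested genes 7.39% were lower and 6.53% higher. With 16 members, these counts are not read as a trait of the group. All 16 were higher in mutants at 0 h, with a median difference of 1.86. That difference shares the 0 h libraries with the rule and carries no test.

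The summed levels of the marker lists of these structures did not all follow the members. The summed level of 13 antennal support and odour clearance genes, 4 of them members, was 5682 to 6032 normalized counts in controls at 0 h, 9941 to 10802 at 6 h and 5934 to 6170 at 12 h. In mutants it was 11023 to 11034 at 0 h, 8131 to 8201 at 6 h and 2376 to 2409 at 12 h. *lush*, an odorant-binding protein that is no member, was at 301 and 242 in controls at 6 h and 62.2 and 62.9 at 12 h. Mutants of these hours were at 292 and 350, and 30.3 and 38.5. Mutants minus controls was 2.685 at 0 h and -0.854 at 12 h for *lush* on the log2 scale. For the non-member *a10* it was 3.552 and -1.665. Both shared the order of most members, as did the non-members *Os-C* and *Snmp1*. *Est-6*, *ppk23*, *ppk25*, *ppk29* and *Snmp2* did not. From 0 to 12 h in controls, *lush* changed by -0.355 and *a10* by 0.554, short of the rule's threshold. The summed level of 27 motile cilia and chordotonal organ genes was 3661 to 3706, 4205 to 5188 and 3263 to 3380 in controls at 0, 6 and 12 h and 5542 to 5663, 4336 to 4425 and 2770 to 3027 in mutants. All 13 and 27 genes were above 0 in at least 1 library. At 6 h, 3 of the 13 antennal support genes were lower in mutants and 0 higher by limma, and these 3 are no members. Of the 26 tested ciliary and chordotonal genes, 2 were lower and 1 was higher, also no members. The 60 odorant receptors in the table, 5 of them members, summed to 2831 to 2853, 2872 to 2966 and 2594 to 2699.7 in controls at 0, 6 and 12 h. In mutants they summed to 2702 to 2789, 2648 to 2846 and 2263 to 2298, so this sum was lower in mutants at 0 h. The sum was weighted to its most abundant genes, the non-members *Or43b* and *Or63a*. At 0 h *Or43b* was at 931 and 951 in controls and 645 and 695 in mutants. *Or63a* was at 573 and 594 against 397 and 441. The 5 members had a higher mean in mutants at 0 h. The 63 ionotropic receptors summed to 2216 to 2369.7 in controls and 2165 to 2174 in mutants at 0 h, and to 1936 to 1957 and 1945 to 2018 at 12 h. The part of antennal material in the members' values was not tested, and in bulk heads fewer cells of a type and less RNA per cell cannot be told apart.

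**Figure D4:**
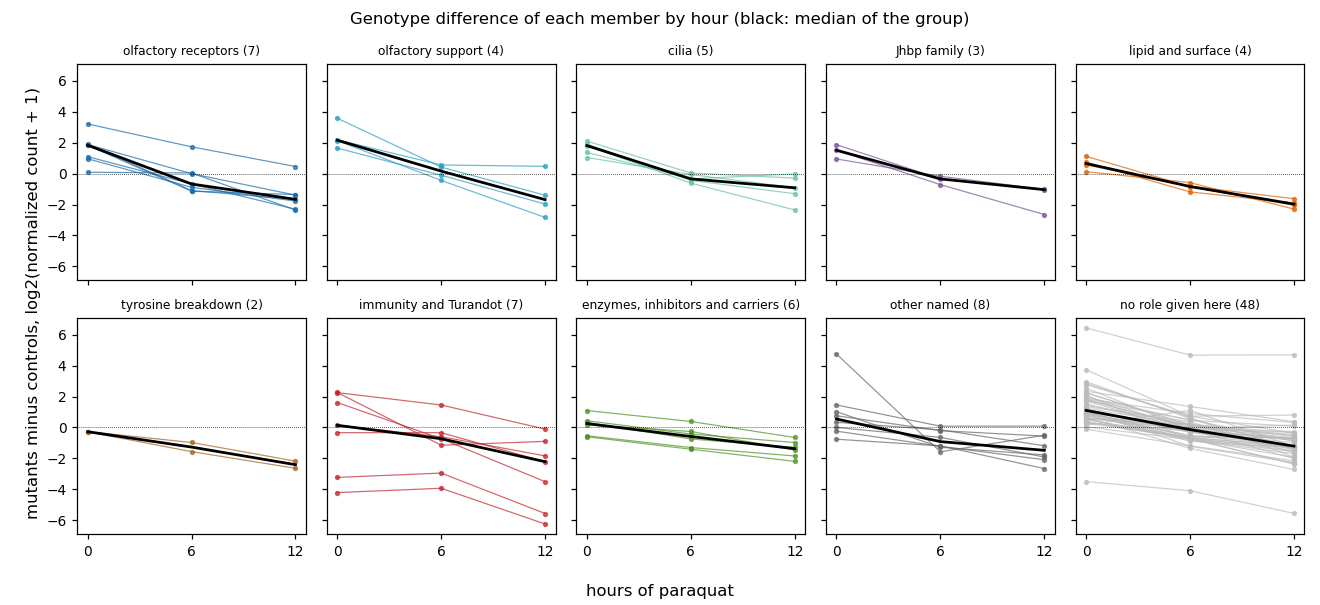
Genotype difference of each member, mutants minus controls on the log2(normalized count + 1) scale (y axis), at 0, 6 and 12 h of paraquat (x axis), in 1 panel for each role group. Thin lines are members and black lines group medians. Olfactory support genes go from a median of 2.16 at 0 h through 0.16 at 6 h to -1.68 at 12 h, and lipid and surface genes from 0.65 through -0.84 to -1.98.

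The 3 Jhbp members belong to the family of secreted proteins related to takeout, which share a domain with haemolymph carriers of juvenile hormone. *Jhbp11* (FBgn0039485) was at 124 and 140.4 normalized counts in controls at 0 h, 381 and 424 at 6 h and 388 and 366 at 12 h, and at 349.6 and 407, 269 and 222, and 60.6 and 57.8 in mutants. It was lower in mutants at 6 h by limma (-0.71 ± 0.13, adjusted p = 0.00097), after standing above the controls at 0 h, and the call was lost without mutant 6 h replicate 2. *Jhbp3*, at 2916 and 2614 in controls and 2269 and 2085 in mutants at 6 h, also did not overlap, but its difference of -0.34 ± 0.07 (adjusted p = 0.0019) was under 1.5-fold. *Jhbp1* differed by -0.17 ± 0.13 (adjusted p = 0.35). Over the 13 tested takeout-like genes, 6 were lower and 1 was higher in mutants at 6 h, and the 10 that are no members held 5 of the lower calls. The shares over all tested genes were 7.39% lower and 6.53% higher.

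All 4 members with roles in lipids and the body surface were lower in mutants at 6 h. *Elovl7* (FBgn0037534), a fatty acid elongase, was at 968 and 1104 normalized counts in controls at 0 h, 1701 and 1571 at 6 h and 1754 and 1615 at 12 h. Its mutant libraries were at 1660 and 1791 at 0 h, 809.6 and 637 at 6 h and 458 and 442 at 12 h. Its control libraries of 6 and 12 h and its mutant libraries of 0 h were at similar levels, and its mutant libraries of 6 h were below all control libraries. The 6 h difference was -1.19 ± 0.10 (adjusted p = 6.2e-06), a level 2.27-fold higher in controls. *CG9747*, a fatty acid desaturase, was at 747 and 703 in controls and 415 and 389 in mutants at 6 h (-0.85 ± 0.08, adjusted p = 9.4e-06).

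*osy*, an ABC transporter of barrier lipids of the cuticle, was at 1273 and 1166 normalized counts in controls at 0 h, 1983 and 1665 at 6 h and 2469 and 2539 at 12 h, and at 1667 and 1954, 1174 and 899, and 793 and 831 in mutants. The 6 h libraries did not overlap (-0.82 ± 0.12, adjusted p = 0.00029). *bond* (FBgn0260942), an elongase of very long chain fatty acids, was at 929.5 and 929.6 in controls and 959.6 and 1073 in mutants at 0 h, at 1107 and 1022 against 694 and 724 at 6 h, and at 1571 and 1519 against 294 and 335 at 12 h. The genotypes were at similar levels at 0 h and the mutants were lower at both later hours. The 6 h call of *bond*, at -0.59 ± 0.08 (adjusted p = 0.00013), sat at the fold threshold and was lost at a pseudocount of 5, with median centring and without either control 6 h replicate 1 or mutant 6 h replicate 1. Of 11 tested fatty acid elongase and desaturase genes, 5 were lower in mutants at 6 h and 0 higher by limma. These were the members *Elovl7* and *bond* and the non-members *Desat1*, *Elo68alpha* and *Elo68beta*, and *CG9747* was not on that list.

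Both enzymes of tyrosine breakdown were lower in mutants at 6 h. *Hpd* (FBgn0036992), 4-hydroxyphenylpyruvate dioxygenase, was at 4790 and 4112 normalized counts in controls at 0 h, 11285 and 11645 at 6 h and 10528 and 10551 at 12 h. In mutants it was at 3550 and 3841 at 0 h, 5929 and 5773 at 6 h and 2343 and 2326 at 12 h. Mutants were below controls at every hour, and both genotypes were higher at 6 h than at 0 h. *hgo* (FBgn0040211), homogentisate 1,2-dioxygenase of the next step, was at 503 and 459.8, 1565 and 1557, and 1360 and 1321 in controls and at 362 and 434, 546 and 510.1, and 217 and 212 in mutants. At 6 h the differences were -0.97 ± 0.06 for *Hpd* (adjusted p = 7.8e-07) and -1.56 ± 0.09 for *hgo* (adjusted p = 2e-07), 1.96-fold and 2.96-fold higher levels in controls.

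The pathway was counted from a list of 7 genes that was added after the members were seen and includes the 2 members *Hpd* and *hgo*. Of the 7, 5 were lower in mutants at 6 h and 0 higher by limma. The median of -0.97 is the value of *Hpd* itself. Among the non-members, 3 were lower and 0 higher. The non-members among the lower genes were *Hn*, phenylalanine hydroxylase (-0.64, adjusted p = 0.0004), *Tat*, tyrosine aminotransferase (-1.21, adjusted p = 2.3e-06), and *GstZ2*, a maleylacetoacetate isomerase (-1.15, adjusted p = 1.4e-07). *Faa*, fumarylacetoacetase, was at -0.15 (adjusted p = 0.23) and *GstZ1* at -0.40 (adjusted p = 0.064). *Hpd* overlaps *CtIP* on the opposite strand, and the library kit does not mark strand, so reads of the overlap cannot be assigned to either gene.

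Among the immune members, *Drsl5* (FBgn0035434), a drosomycin-like peptide gene, had the widest gap between the 2 selecting differences of all members whose libraries did not overlap, 5.12 on the log2 scale. It was at 993 and 919 normalized counts in controls at 0 h, 3782 and 3804 at 6 h and 3129 and 3410 at 12 h. The mutant libraries were at 2694 and 3186 at 0 h, 2440 and 2155 at 6 h and 282 and 291 at 12 h. The genotypes did not overlap at any hour, and mutants were lower at 6 h (-0.73 ± 0.08, adjusted p = 4.8e-05). *GNBP3*, a recognition protein for fungal glucans, was at 936 and 1118 in controls and 714 and 639 in mutants at 6 h (-0.60 ± 0.12, adjusted p = 0.0026). Its call was lost with median centring and without control 6 h replicate 2 or mutant 6 h replicate 2. *BomS6*, a Bomanin peptide gene, differed by -0.34 ± 0.22 (adjusted p = 0.28), while 7 of the 12 Bomanin genes were lower and 1 was higher at 6 h.

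The Turandot members were low in mutants at every hour. *TotC* (FBgn0044812) was at 2891 and 2780 normalized counts in controls at 0 h, 3391 and 4692 at 6 h and 5738 and 3899 at 12 h, and at 100.4 and 231, 324 and 209.6, and 30.3 and 124 in mutants. *TotM* was at 591 and 658, 946 and 1034, and 2345 and 1139 in controls and at 19.4 and 217, 219 and 73.8, and 21.6 and 51.7 in mutants. No mutant library reached the lowest control library for either gene, and within mutants the libraries of 0 and 12 h overlapped for both. At 6 h *TotC* was 15.2-fold higher in controls (-3.93 ± 0.54, adjusted p = 0.00016) and *TotM* 7.72-fold higher (-2.95 ± 0.87, adjusted p = 0.022). The call of *TotM* was lost with no minimum count and without either control 6 h library or mutant 6 h replicate 2. All 4 tested Turandot genes were lower at 6 h, including the non-members *TotA* (-2.73) and *TotX* (-2.86).

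*DptA* and *Def*, which encode the antimicrobial peptides diptericin and defensin, were members through single libraries. *DptA* was at 26.8 and 20.9 normalized counts in controls at 0 h and 751 and 25.6 at 12 h, and at 104 and 132 in mutants at 0 h and 3.25 and 1360 at 12 h. *Def* was at 239 in control 12 h replicate 1 and 23.3 in replicate 2. Both left the member list without control 12 h replicate 1, and *DptA* also without mutant 0 h replicate 2 or mutant 12 h replicate 1. At 6 h their differences were -1.15 ± 2.18 (adjusted p = 0.74) and 1.46 ± 0.74 (adjusted p = 0.16). Of 18 tested antimicrobial peptide genes, 6 were lower in mutants at 6 h and 0 higher by limma. Mutant 12 h replicate 2 also had 1077 to 1963 normalized counts of the non-members *AttA*, *AttB*, *AttC* and *Dro*, where mutant 12 h replicate 1 had 4.33 to 90.9.

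Of the 6 enzymes, inhibitors and carriers, 3 were lower in mutants at 6 h. *Cys* (FBgn0004629), a cystatin-like inhibitor of cysteine proteases, was at 7093 and 6550 normalized counts in controls at 0 h, 9773 and 11281 at 6 h and 12771 and 11968 at 12 h. Mutant libraries held 4267 and 4737, 4065 and 3866, and 2620 and 2795. The genotypes did not overlap at any hour, and the 6 h level was 2.65-fold higher in controls (-1.41 ± 0.08, adjusted p = 1.7e-07). *Mdr65*, an ABC transporter of the glial blood-brain barrier, was at 1997 and 2362 in controls and 1333 and 1268 in mutants at 6 h (-0.74 ± 0.08, adjusted p = 2.3e-05). Of the 11 listed glial genes, *Mdr65* was the 1 lower at 6 h, and 1 non-member was higher. *Qsox2*, a sulfhydryl oxidase, differed by -1.30 ± 0.21 (adjusted p = 0.00052). *Nep6*, a neprilysin-like peptidase, *Mal-A6*, a maltase, and *sea*, the mitochondrial citrate carrier, were not called, with differences of -0.26, 0.39 and -0.42.

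**Figure D5:**
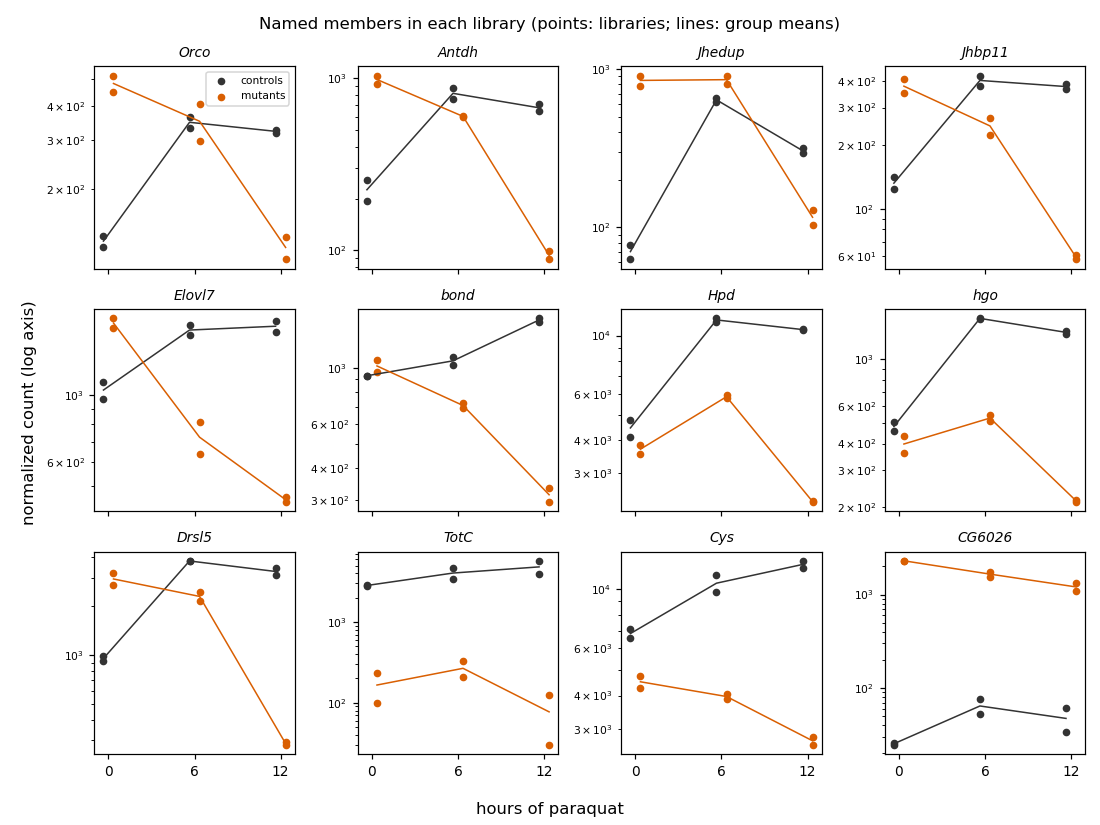
Normalized counts (y axis, log scale) of 12 named members at 0, 6 and 12 h of paraquat (x axis), in controls (black) and *G9a* mutants (orange). Points are libraries and lines join group means. *Orco* crosses between genotypes near 6 h, *Hpd*, *hgo*, *TotC* and *Cys* are lower in mutants at each hour, and *CG6026* is higher in mutants at each hour, at 1099 to 2297 against 24.9 to 75.7.

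Among the 8 other named genes, *Vajk3*, of a family of cuticle proteins, was called at 6 h. It was at 88.8 and 84.4 normalized counts in controls and 31.4 and 42.8 in mutants (-1.22 ± 0.28, adjusted p = 0.0056), and the call was lost without mutant 6 h replicate 1. *Dfd*, a Hox gene of the head, was at 529 and 619 in controls and 524 and 471 in mutants at 6 h (-0.20 ± 0.09, adjusted p = 0.097). The forkhead gene *fd96Cb*, the troponin C gene *TpnC47D* and *ect* differed by -0.16, 0.08 and -1.19 without a call. *Yp1*, which encodes a yolk protein, was at 162 in control 12 h replicate 1 and between 15.0 and 47.2 in the other 11 libraries.

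*whe* and its neighbour *lcs* were high in single libraries of both genotypes. *whe* was at 589.8 normalized counts in control 12 h replicate 1, 675 in mutant 0 h replicate 1 and 141 in mutant 12 h replicate 2, and at 0 to 12.4 in the other 9 libraries. *lcs* was at 798, 941 and 239 in the same 3 libraries and at 28.1 to 227 in the others. *CG13947* was at 185 in control 12 h replicate 1 and 79.0 in mutant 0 h replicate 1, and at 0 to 8.42 elsewhere. These genes met the rule because of these libraries: *whe*, *lcs* and *CG13947* all left the list when either control 12 h replicate 1 or mutant 0 h replicate 1 was removed. At 6 h they were not called, with standard errors of 3.01, 1.11 and 2.02 on the log2 scale.

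Of the 48 members without a role, 11 were lower in mutants at 6 h, 4 were higher and 33 were not called. The shares over all tested genes were 7.39% lower and 6.53% higher. *CG6409* (FBgn0036106), named after its values were seen because it was the most abundant member, was at 7595 and 7626 normalized counts in controls at 0 h, 23728 and 22801 at 6 h and 33768 and 33941 at 12 h. In mutants it was at 12786 and 13421, 15285 and 13240, and 6626 and 6481. Mutants were above controls at 0 h and below them at 6 h (-0.71 ± 0.06, adjusted p = 4.8e-06) and 12 h. *CG32115* was at 56.0 to 145 in the 6 control libraries, with 71.6 and 88.1 at 6 h, and at 1.20 to 5.35 in all 6 mutant libraries. Its 6 h difference of -4.09 ± 0.39 (adjusted p = 1e-05) was the lowest of all members. Its fall in mutants lay near the floor, from 4.53 and 4.32 at 0 h to 3.25 and 1.20 at 12 h. *CG32115* left the member list without mutant 12 h replicate 2 and at a pseudocount of 5.

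*CG13950* was at 66.9 and 43.5 normalized counts in controls at 0 h, 214 and 208 at 6 h and 95.7 and 99.0 at 12 h, and at 236 and 229, 127 and 124, and 21.6 and 15.6 in mutants. The 6 h call (-0.74 ± 0.20, adjusted p = 0.015) was lost with no minimum count and without any of the 4 libraries of 6 h. *CG9400* was at 298 and 213 in controls and 124 and 93.0 in mutants at 6 h (-1.22 ± 0.21, adjusted p = 0.00078). *CG15865* was at 6.38 and 11.7 in controls at 0 h, 10.6 and 34.7 at 6 h and 15.6 and 17.5 at 12 h, and at 14.9 and 13.7, 7.54 and 6.42, and 1.08 and 2.41 in mutants, without a call (adjusted p = 0.084). It reached the minimum mean only with control 6 h replicate 2, the library at 34.7. *CG7299*, next to the member *CG7296*, was at 106 and 95.3 in controls at 0 h and 556 and 628 in mutants, and its 6 h libraries overlapped (-0.11 ± 0.15, adjusted p = 0.61). The other lower calls, named after their values were seen, were *CG34327*, *CG34454*, *CG40006*, *CG14259*, *CG10175*, *CG9095* and *CG15120*, between -1.18 and -0.66. The call of *CG34327* was lost with no minimum count and without control 6 h replicate 1 or mutant 6 h replicate 2. That of *CG9095* was lost with no minimum count and without either control 6 h library or mutant 6 h replicate 1, and that of *CG40006* without mutant 6 h replicate 2.

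The members higher in mutants at 6 h were led by *CG6026* (FBgn0038676). It was at 24.9 and 25.9 normalized counts in controls at 0 h, 53.0 and 75.7 at 6 h and 61.0 and 33.8 at 12 h. Its mutant libraries were at 2297 and 2292, 1749 and 1557, and 1313 and 1099. *CG6026* left the member list without control 12 h replicate 1, the library at 61.0. Every mutant library was above every control library, and the 6 h level was 25.6-fold higher in mutants (4.68 ± 0.23, adjusted p = 8.7e-08). *CG14567* was at 34.5 and 40.9 in controls and 108 and 88.8 in mutants at 6 h (1.36 ± 0.22, adjusted p = 0.0005). *CG14329* was at 264 and 349 against 534 and 476 (0.73 ± 0.21, adjusted p = 0.017), and its call was lost with no minimum count and without control 6 h replicate 1 or mutant 6 h replicate 1. *CG6688*, at 7.96 and 11.2 against 20.1 and 17.1 (0.91 ± 0.32, adjusted p = 0.045), lost its call in 14 of the 23 alternative fits, and *CG15120* on the lower side (adjusted p = 0.040) lost it in 11.

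Gene positions and strands were used to find members that lie next to each other among the tested genes or overlap other genes. There were 5 neighbouring pairs, *CG7299* and *CG7296*, *Or59b* and *Or59c*, *CG34454* and *CG34453*, *CG14419* and *CG3588*, and *lcs* and *whe*. In 4 pairs neither gene was called at 6 h. Their differences were -0.11 for *CG7299* and -0.50 for *CG7296*, and -1.14 for *Or59b* and 0.04 for *Or59c*. They were 0.73 for *CG14419* and 0.20 for *CG3588*, and -1.28 for *lcs* and -1.57 for *whe*. In the remaining pair *CG34454* was lower in mutants (-0.79 ± 0.16) and *CG34453* was not called (0.05 ± 0.28). Exons of 14 members overlap another annotated gene, among them *Hpd*, *Cys*, *bond*, *OS9*, *CG9400* and *CG15120*, and *sea* shares its strand with the overlapping *fabp*. Without strand information their counts may include reads of the partner.

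Levels of other tissue lists differed between groups as well. The summed level of 11 fat body secreted genes was 59298 to 70331 normalized counts in controls at 0 h, 28852 to 39655 at 6 h and 23287 to 25417 at 12 h, and 21512 to 24591, 11810 to 12328 and 4191 to 5044 in mutants. Of the 8 tested, 2 were lower and 2 higher in mutants at 6 h, and 1, *Yp1*, was a member. The core clock genes summed to 29994 to 33360 in controls at 0 h and 132967 to 139401 at 12 h, and to 33184 to 34213 and 128762 to 129881 in mutants, with 0 of the 8 among the members. The muscle list, with no member, summed to 226577 to 233579 in controls and 148831 to 149723 in mutants at 0 h, 205159 to 259618 and 150607 to 172585 at 6 h, and 186908 to 193667 and 126515 to 133205 at 12 h. Of its 18 tested genes, 8 were lower in mutants at 6 h and 0 higher by limma, with a median of -0.52. Of the 13 blood cell genes, also with no member, 5 were lower and 0 higher at 6 h by limma. Their sums at 6 h were 11882 to 13045 in controls and 11005 to 11686 in mutants. Calls at 6 h covered 7.39% (lower) and 6.53% (higher) of all tested genes. The part of fat body, muscle or blood cell content and of time of day in the members' values was not tested.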

How the data were processed

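RNA of male heads was sequenced as single-end reads. Per the paper's methods, the authors used BWA for alignment to BDGP 5, HTSeq for counts of each gene, and DESeq for scaling (tool versions not given in the sources used here). The deposited table holds these normalized counts, a signal scaled by a size factor for each library. Dividing by the step of 1 read gave whole reads for 188184 of 188184 values (tolerance 0.01), 19275805 to 41393992 per library, so depth limited low genes most at 6 and 12 h. The 4 deposited tables of the authors' comparisons, which hold mean counts, fold changes and p-values, were not used. Symbols were paired with 15002 of 15682 IDs from an annotation of a later build, which was also used for gene order, strand and exon overlaps. No coordinates or sequences are printed from it.

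Genotypes at 6 h were compared with limma 3.58.1 (R 4.3.3) on log2(normalized count + 1), over all 12 libraries in 6 groups with a mean-variance trend, for genes with a mean of at least 10. Benjamini-Hochberg adjustment covered 10530 genes. An exact permutation test of 2 against 2 libraries cannot go below p = 0.333, so none is given for single genes. Alternatives were edgeR 4.0.16 and DESeq2 1.42.0 on the recovered reads, other pseudocounts, minimums and scalings, the replicate number as a block, the 6 h libraries alone, and each library left out. The fits were tested on simulated data.

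Named were the 12 members with the widest gap between the responses at 12 h among those without overlap, up to 5 calls in each direction at 6 h, members on gene lists, members nearest the thresholds, and members of textbook role. Other genes were named after their values were seen. Members and lists were chosen with earlier results of these data known. The role groups and the tyrosine, Turandot and Bomanin lists were added after the members were seen, and the symbols *OS9* and *Antdh* on a list were respelled to match the table. Figures were drawn with Python 3.11.15 and matplotlib 3.10.9.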

Additional observations from a re-analysis of the deposited data

How the results depend on the processing

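The rule gave 94 members, against 207 with no minimum count, 55 with a mean of at least 50 and 21 with a fold of 2. A pseudocount of 0.5 gave 97 members and a pseudocount of 5 gave 72, all of these 72 among the 94. Leaving out 1 library gave 89 to 107 members, and these counts hide turnover. Without control 12 h replicate 1 there were 99, of which 76 were among the 94. Only 44 of the 94 met the rule whichever single library was left out. Median centring gave 79 members, of which 77 were among the 94, and thinning the reads to the smallest library gave 101, of which 82 were. At 6 h, 26 members were lower in mutants, and 19 to 28 when 1 library was left out. Another 5 were higher, against 3 with a mean of at least 50 and 2 to 5 when 1 library was left out (3 if this was control 6 h replicate 1 and 2 if it was mutant 6 h replicate 1). The median genotype difference over members at 6 h was -0.34, and -0.585 with a mean of at least 50, where only 55 members were tested. edgeR called 28 lower and 4 higher, and DESeq2 25 and 4. Of the 31 called members, 18 kept the call in all of the 23 alternatives that tested them, 13 lost it in at least 1, and none changed sign. Of the uncalled members 9 gained a call in at least 1, among them *Ir31a* with edgeR. The cause of these changes was not tested.

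With the replicate number as a block, 26 members were lower and 5 higher at 6 h, with 2 calls lost and 2 gained. No label links the replicate numbers of different groups. Deviations of same-numbered libraries in controls and mutants at 6 h correlated at -0.122. Over all pairs of groups the correlations ran from -0.568, for controls at 6 and 12 h, to 0.449, for controls at 0 and 12 h. The main fit took the libraries as independent, and a shared source of these deviations was not tested. The crossed pairing, chosen after seeing the data, also gave 26 and 5 members, with 2 calls lost and 2 gained.

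With 2 libraries in a group, the median standard error of the members at 6 h was 0.277 on the log2 scale, and 39 of the 94 had a mean under 50 normalized counts. *Or59b* and *Ir40a* did not pass the test, which does not show that they were alike between genotypes, and *Or59b* was called without mutant 6 h replicate 1.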
